A study of Danio rerio with 8 samples.

Results

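Cytosolic ribosomal protein genes were compared between runx2b-/- and wild type zebrafish. Each such gene encodes 1 protein of the ribosome that works in the cytoplasm. They were picked by symbol (rpl or rps followed by a digit, a, p or x): 92 symbols matched, and 11 rps6k symbols, which name S6 kinases, were left out. This gave 81 of the 25279 gene symbols in the count table. One of the 81, rps19bp1, encodes a binding partner of a ribosomal protein and is no ribosomal protein. The counts below are over the other 80: 46 genes of the large (60S) subunit and 34 of the small (40S) subunit. Subunits were assigned by symbol (rpl or rps) alone. The symbol rule used no measured value, but it was chosen with earlier results of these data known.

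The series asked which genes go with the formation of intermuscular bones, the thin bones in the connective tissue between fish muscle segments. Bulk RNA came from tail muscle with these bones in fish 60 days post fertilization, 3 libraries from runx2b-/- fish and 3 from wild type fish. Both genotypes were of the Tg (sp7/eGFP) line, whose label names a transgene on the promoter of the osteoblast gene sp7, and the labels give neither the mutant allele nor the sex. The series' 2 single-cell samples were not analysed here. No label tells whether the 3 libraries of a genotype are 3 fish, so the p-values below measure the spread among these libraries alone, which may be technical.

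A ribosome holds 1 copy of nearly every ribosomal protein, set on ribosomal RNA. The small subunit reads the messenger RNA, and the large subunit joins amino acids and holds the exit tunnel for the new chain. In vertebrates the messenger RNAs of these proteins start with a tract of pyrimidines, through which the mTOR kinase pathway controls their translation together. A difference in their RNA therefore need not be a difference in the proteins. Skeletal muscle adds ribosomes when its fibres grow.

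Library totals ran from 17280098 to 20429162 counts in runx2b-/- and from 19890668 to 20482003 in wild type. The 10 most abundant genes of each library took 47.4% to 54.8% of its counts. The summed level of 6 fast muscle markers was 239199 to 399063 CPM (read counts per unit of scaled library size) in runx2b-/- and 289607 to 428049 CPM in wild type, in a tissue labelled as muscle with bone. runx2b itself had 4, 2 and 6 counts in the runx2b-/- libraries and 2, 2 and 6 in the wild type libraries. The ratio of runx2b-/- to wild type was 1.27, with a 95% exact interval of 0.504 to 3.29 for counting error only. Mutant transcripts can be as abundant as normal ones, so this count is no check of the genotype labels.

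The ribosomal protein genes were among the most abundant messages of the tissue. All 80 passed the filter on low counts, as did 14107 genes in all. Their median level was 229 CPM, against 3.43 CPM over all tested genes, and 79 of the 80 had a mean of at least 100 counts per library. Per kilobase of the gene length in the table the median was 212 CPM, against 1.28 over all tested genes, and 68 of the 80 stood among the 500 highest. The lowest was rpl7l1, a paralog of rpl7 counted in the large subunit by its symbol alone, at 3.02 CPM. These lengths add up the exons of every isoform, as in rpl34 at 4185 bases and rps24 at 3569 bases, so the level per kilobase of such a gene can be understated.

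In the large subunit rpl26, rpl14, rplp2 and rpl6 had the highest levels per kilobase. rpl26 encodes a protein near the exit tunnel. It had 973, 1012 and 1028 CPM in runx2b-/- against 920.4, 1079.8 and 1189 CPM in wild type. rplp2 encodes an acidic protein of the stalk that recruits the translation factors. Its levels were 548, 687 and 579 CPM in runx2b-/- and 655, 798 and 789 CPM in wild type, and the groups overlapped. rpl6 had 1259, 1300.2 and 1435 CPM in runx2b-/- and 1235, 1375 and 1519.9 CPM in wild type, again with overlap. The levels of rpl14 (1141, 1193 and 1184 CPM in runx2b-/-, against 1060.3, 1239 and 1187 in wild type) overlapped too. In the small subunit rps27a, rps2, rps18 and rps25 led. rps27a encodes ubiquitin fused to a ribosomal protein, and had 796, 855 and 815 CPM in runx2b-/- against 869, 1010.1 and 1028 CPM in wild type. rps18, for a protein of the small subunit's head, had 833, 866 and 847 CPM in runx2b-/- against 871, 983 and 1043 CPM in wild type. rps25, needed in yeast and mammals for initiation from some viral RNAs, had 211, 213 and 213 CPM in runx2b-/- against 224, 250.1 and 266 CPM in wild type. In these 3 small subunit genes every runx2b-/- library lay below every wild type library, as in 11.7% of all tested genes. rps2, for a protein where the messenger RNA enters, had 848, 886 and 931 CPM in runx2b-/- against 846, 955 and 1026 CPM in wild type, and overlapped.

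edgeR's quasi-likelihood test called 0 of the 80 genes higher and 0 lower in runx2b-/-, where a call needed an adjusted p under 0.05 (Benjamini-Hochberg). It called 476 (3.37%) of all 14107 tested genes. The lowest adjusted p among the 80 was 0.171. An unadjusted p under 0.05 was reached by 4 of the 80 (5.0%), among them rps20, rpl10a and rpl24, against 19.4% of all tested genes. DESeq2 and limma voom also called 0, with 4 at an unadjusted p under 0.05 each. A p above the threshold does not show that levels were equal, but the sizes were bounded: the 95% intervals of the 80 log2 fold changes, each unadjusted, lay between -0.76 and 0.68, which is 1.70-fold lower to 1.604-fold higher. In bulk tissue fewer cells of a type and less RNA per cell cannot be told apart.

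The fold changes were small and mostly of 1 sign. Their median was -0.13 on the log2 scale (runx2b-/- over wild type; 1.09-fold lower), against -0.01 over all tested genes, and they ran from -0.41 to 0.31. rps19bp1, outside the 80, stood at -0.12 and was not called. Of the 80, 72 lay below 0, against 50.8% of all tested genes. The median standard error (SE) of a gene was 0.15, and 44 of the 80 differences were within 1 SE of 0. In 18 of the 80 (22.5%) every runx2b-/- library lay below every wild type library, which was so in 11.7% of all tested genes. In 0 of the 80 did every runx2b-/- library lie above, against 12.8% of all tested genes.

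**Figure D1:**
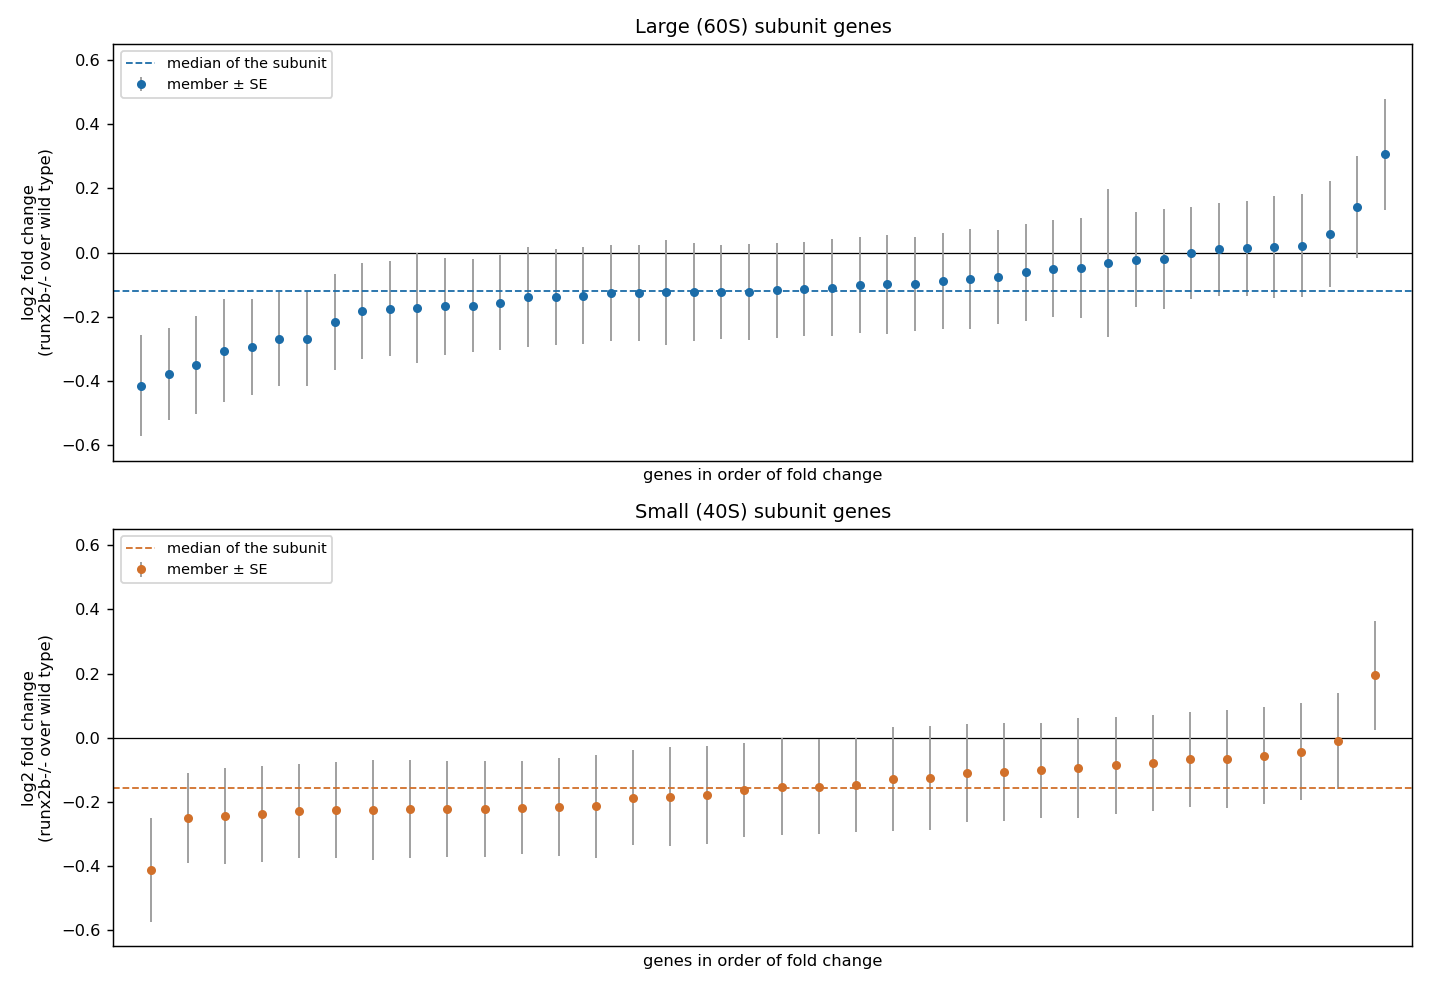
Log2 fold change (runx2b-/- over wild type) of each ribosomal protein gene, in order of fold change, with the large subunit above and the small subunit below; points are edgeR estimates, vertical lines are ± 1 SE (3 libraries per genotype), and dashed lines are the subunit medians of -0.12 and -0.16. Of the points, 39 of 46 in the large and 33 of 34 in the small subunit lie below 0, and none passed the test.

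The libraries did not split cleanly by genotype. Each gene's log2 CPM was set against its own mean over the 6 libraries. The median of these deviations over the 80 genes was -0.09, -0.04 and -0.06 in runx2b-/- libraries 1 to 3, and -0.08, 0.09 and 0.19 in wild type libraries 1 to 3. Wild type library 1 thus lay among the runx2b-/- libraries. Wild type library 3 held the highest level of 68 of the 80 genes and was above the gene's mean in all 80, wild type library 2 was above it in 74, and wild type library 1 in 10. In the runx2b-/- libraries 5, 25 and 19 genes were above their mean. Without wild type library 1 the median log2 fold change was -0.21, with 77 genes below 0, and without wild type library 3 it was -0.05, with 61 below 0. Without each other single library it ran from -0.13 to -0.12.

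**Figure D2:**
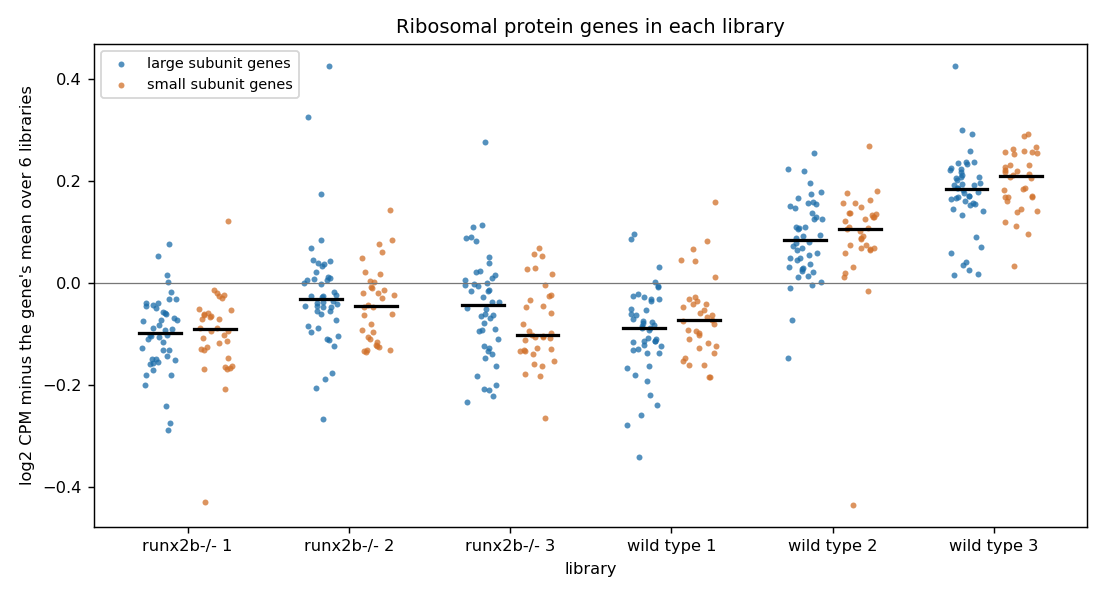
Each point is 1 ribosomal protein gene in 1 library, as its log2 CPM minus its mean over the 6 libraries (vertical axis); columns are the 3 runx2b-/- libraries and then the 3 wild type libraries, with the large subunit in blue and the small subunit in orange. Horizontal bars are medians. Wild type library 1 lies with the runx2b-/- libraries, and wild type libraries 2 and 3 lie higher.

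Summed over the 80 genes, ribosomal protein messages took 2.79%, 2.51% and 2.34% of the counts in runx2b-/- libraries and 2.81%, 2.95% and 2.67% in wild type libraries. The means were 2.54 ± 0.225% and 2.81 ± 0.142% (SD, n = 3 each), and runx2b-/- library 1 lay within the wild type range. The difference was -0.265 percentage points, or -9.42% of the wild type mean, and -0.163 percentage points without runx2b-/- library 3. It was -8.84% when the 20 most abundant genes were left out of the totals and -7.78% in summed CPM, a measure added after seeing the data. In summed CPM the levels were 24863, 26171 and 26095 in runx2b-/- and 25009, 28359 and 30267 in wild type, where wild type library 1 lay within the range of runx2b-/-.

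Large and small subunit genes were compared next, since a ribosome needs both in equal number. The median log2 fold change was -0.12 over the 46 large and -0.16 over the 34 small subunit genes, a difference of 0.04. That difference was 0.06 with the length correction described below, and 0.06 without runx2b-/- library 1. The large and small subunit medians were -0.19 and -0.24 without wild type library 1, and -0.04 and -0.10 without wild type library 3. Counts of large over small subunit genes stood at 1.89, 1.90 and 1.95 in runx2b-/- libraries, against 1.83, 1.85 and 1.85 in wild type libraries, and the groups did not overlap. With each gene given equal weight, the log2 ratio was 0.56, 0.58 and 0.60 in runx2b-/- and 0.53, 0.56 and 0.54 in wild type. That ratio too did not overlap, though the lowest runx2b-/- and the highest wild type library nearly met (0.559 and 0.557). The groups of libraries stood apart in these 2 ratios but overlapped in their summed level. Among all single tested genes, 11.7% lay below and 12.8% lay above in every runx2b-/- library. The ratios were not corrected for length, in which the subunits differ (medians of 1332 and 1064 bases). The part of length in them was not tested.

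**Figure D3:**
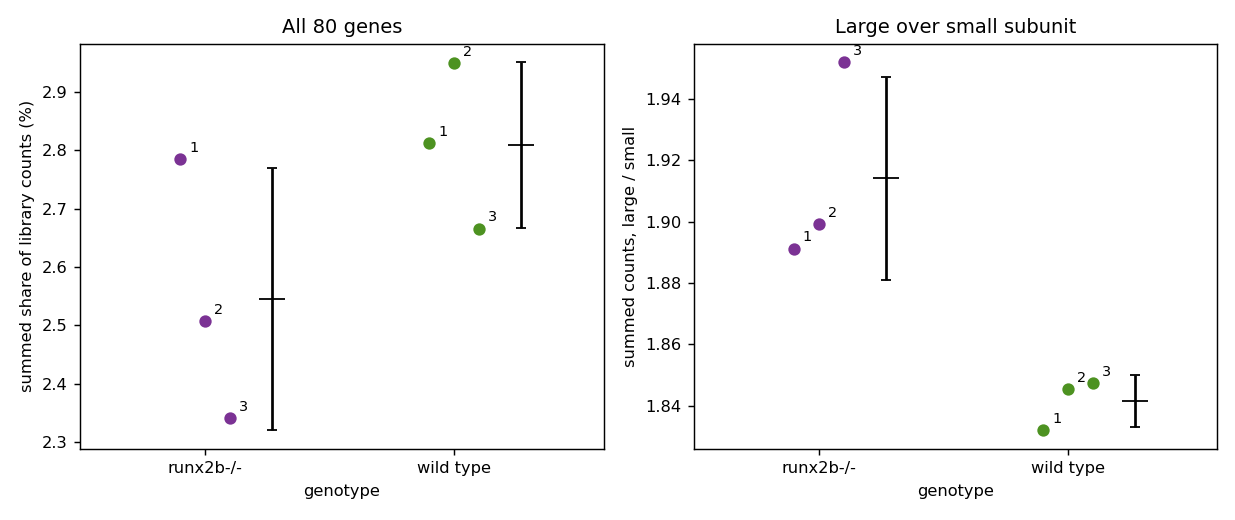
The left panel gives the 80 genes' summed share of library counts (%) and the right panel the ratio of large to small subunit counts, for runx2b-/- (left) and wild type (right) libraries, numbered by replicate; bars are mean ± SD (n = 3). Shares overlap between genotypes, and ratios do not (1.89 to 1.95 against 1.83 to 1.85); neither axis starts at 0.

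In the large subunit rpl10a and rpl24 were among the genes with the lowest fold changes. rpl10a (chromosome 8, 23716883 to 23721746 in the table), for the protein of the mobile stalk where spent transfer RNA leaves, had 164, 165 and 161 CPM in runx2b-/- against 198, 217 and 223 CPM in wild type. Its log2 fold change was -0.38 (SE 0.14, edgeR adjusted p = 0.171). The runx2b-/- libraries lay close together and below all wild type libraries. rpl24 (chromosome 1, 6408 to 12027), whose protein bridges the subunits, had 249, 270.1 and 244 CPM in runx2b-/- and 285, 335 and 353 CPM in wild type (-0.35, SE 0.15, edgeR adjusted p = 0.230).

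At the other end of the large subunit were rpl28, rpl32 and rpl37. rpl28 (chromosome 16, 52026166 to 52031084), a gene that budding yeast lacks, had 255, 342 and 259 CPM in runx2b-/- against 201, 230.2 and 261 CPM in wild type. Only wild type library 3 reached the runx2b-/- range, and the log2 fold change was 0.31 (SE 0.17, edgeR adjusted p = 0.364). It was 0.16 without runx2b-/- library 2, and ran up to 0.41 without the others. rpl32 had 246, 258 and 312 CPM in runx2b-/- and 226, 245 and 269 CPM in wild type (0.14, SE 0.16). rpl37, for a zinc-binding protein, stood at 0.06 (SE 0.17). Its exons lie on several chromosomes in the table, so it was given no position.

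In the small subunit rps20, rps3a and rps13 had the lowest fold changes. rps20 (chromosome 7, 58443272 to 58447960), for a protein of the subunit's head, had 96.7, 128 and 115 CPM in runx2b-/- and 136, 157 and 160 CPM in wild type. The groups did not overlap, and the log2 fold change was -0.41 (SE 0.16, edgeR adjusted p = 0.182). rps3a, on the platform of the subunit, had 340.1, 346 and 350 CPM in runx2b-/- against 421, 397 and 415 CPM in wild type (-0.25, SE 0.14). Here wild type library 1 was the highest of all. rps13 had 81.2, 77.7 and 76.1 CPM in runx2b-/- and 85.8, 90.8 and 102 CPM in wild type (-0.24, SE 0.15). The only small subunit gene above 0 was rps8b, at 71.9, 73.0 and 68.5 CPM in runx2b-/- against 70.0, 48.9 and 67.6 CPM in wild type (0.20, SE 0.17), and its spread came from wild type library 2. rps3, whose protein lines the path of the messenger RNA, stood at -0.04 (SE 0.15).

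To set single genes against the other ribosomal protein genes, library sizes were set to the summed counts of the 80 genes, a scaling added after seeing the data. On this scale each value is a share of the ribosomal protein messages, and the median of all tested genes shifts by 0.11 (log2). None of the 80 was called by edgeR (3.53% of all tested genes were), and 1 had an unadjusted p under 0.05, rpl28. Its share was 1.03%, 1.31% and 0.993% in runx2b-/- against 0.804%, 0.812% and 0.863% in wild type libraries. The difference was 0.42 (log2; SE 0.17, edgeR adjusted p = 0.190). All runx2b-/- libraries lay above all wild type libraries in 7 of the 80 (8.75%, against 18.2% of all tested genes). Besides rpl28 these were rpl32, rpl14, rpl13, rpl21 and rpl31 of the large subunit and rps3 of the small. All runx2b-/- libraries lay below in 15 of the 80 (18.8%, against 6.54% of all tested genes), 6 of the large and 9 of the small subunit. This scaling centres the 80 on themselves and shifts the other genes up. The shares over all tested genes move with it, from 11.7% below and 12.8% above on TMM-scaled library sizes. They are therefore no like measure for the 80 here. rps20 had a share of 0.389%, 0.491% and 0.441% in runx2b-/- against 0.545%, 0.553% and 0.527% in wild type (-0.30, SE 0.16). rpl10a held 0.662%, 0.630% and 0.618% in runx2b-/- against 0.791%, 0.765% and 0.736% in wild type (-0.26, SE 0.15), and rpl24, at -0.23 (SE 0.15), did not overlap either.

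**Figure D4:**
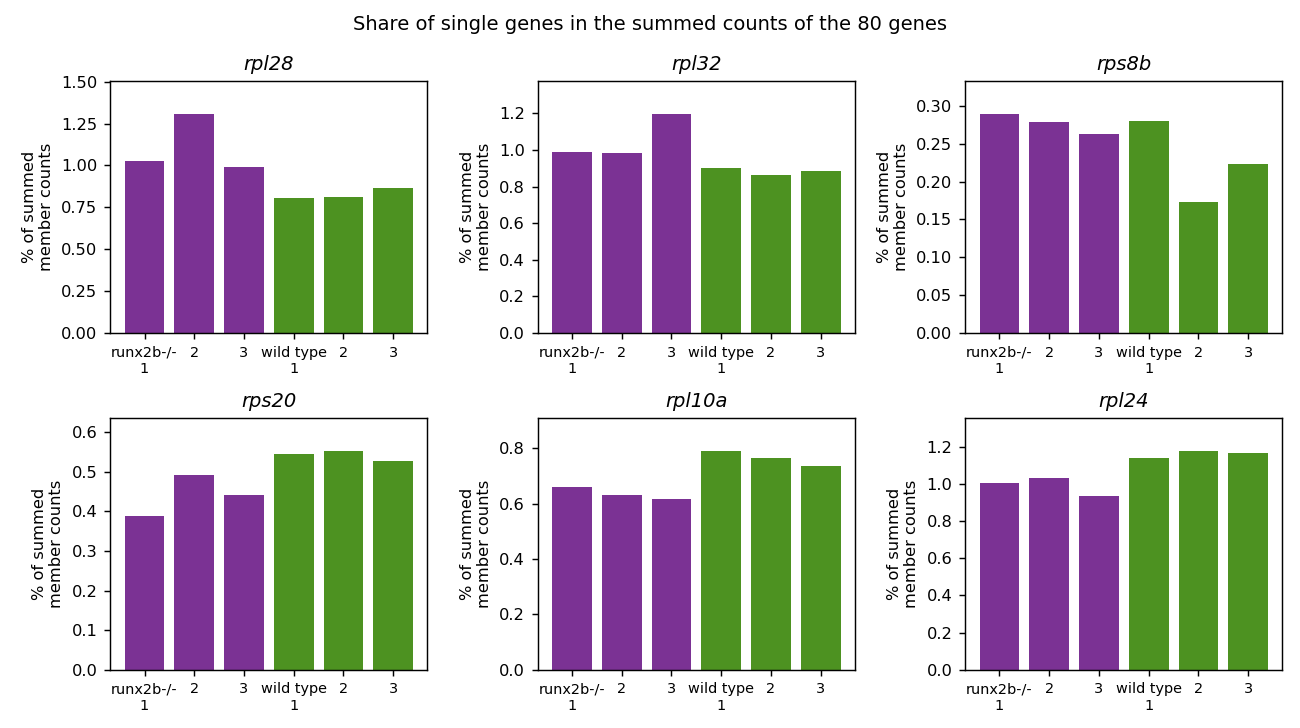
Share of 6 single genes in the summed counts of the 80 ribosomal protein genes (%), in each runx2b-/- library (purple, left) and each wild type library (green, right); bars start at 0 and vertical scales differ between panels. They are the 3 genes with the highest fold changes on this scale and 3 of those with the lowest, and in all but rps8b the genotypes do not overlap.

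Ribosomal protein genes are short, and in these data the fold change went with gene length. Their median length was 1233.5 bases (1332 in the large, 1064 in the small subunit), against 2652 over all tested genes. The 5981 other tested genes between 624 and 2463 bases, the 10th and 90th percentile of the 80, had a median log2 fold change of -0.09, and 58.5% of them lay below 0. The 80 genes were thus -0.04 from genes of their own length, and this distance was -0.13 without wild type library 1 but 0.03 without wild type library 3. With a correction for length in the edgeR fit, the median was -0.05 (-0.02 in the large, -0.09 in the small subunit), 53 genes lay below 0 and 27 above, and 1 had an unadjusted p under 0.05. Within the 80, the 40 shorter genes had a median of -0.13 and the 40 longer ones -0.12 (Spearman's rho of length with fold change 0.155 over the 80 genes and 0.187 over all tested genes, which share the same 6 libraries). Split in this way, the subunit medians lay in the same order: in the shorter genes the medians were -0.12 for 20 large and -0.20 for 20 small subunit genes, and in the longer ones -0.12 for 26 and -0.15 for 14. For each library, log2 level minus the gene's mean over the 6 libraries was fitted on log2 length over all tested genes. Its slope per doubling of length was 0.0213, 0.0289 and 0.0464 in runx2b-/- libraries and -0.0424, -0.0383 and -0.0159 in wild type libraries. These slopes are relative to the mean of the libraries, so both signs must occur. On this relative scale length and genotype went together in every library. The part of length in the members' difference beyond the length correction was not tested.

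**Figure D5:**
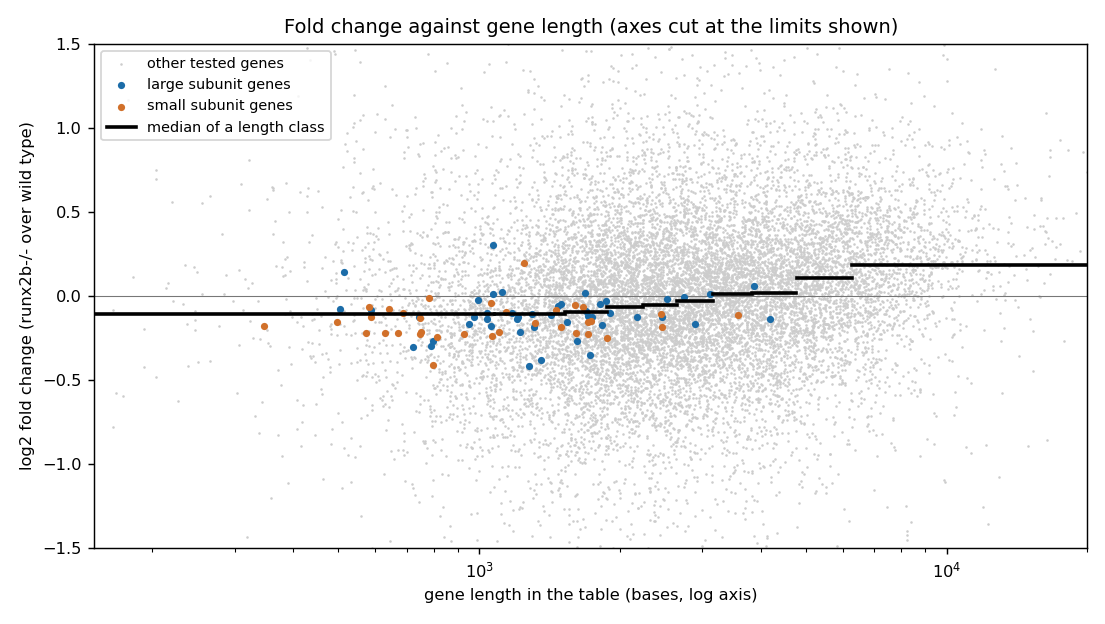
Log2 fold change (runx2b-/- over wild type) against gene length in bases (log axis) for all tested genes (grey) and the large (blue) and small (orange) subunit genes; axes end at the limits shown, so some grey points fall outside. Black steps are medians of 10 length classes, which run from -0.11 in the shortest to 0.19 in the longest class; 68 of the 80 genes sit in the 3 shortest classes.

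Stalk proteins, paralogs and proteins at functional sites were listed as a group. All 25 of its members in the table were tested. None was called by any of the 3 tools (edgeR, DESeq2, voom), 1 (rpl10a) reached an unadjusted p under 0.05, and the median was -0.12. Of the stalk, rplp0 (the base), rplp1, rplp2 and rplp2l stood at -0.10 (SE 0.15), -0.22 (SE 0.15), -0.31 (SE 0.16) and -0.08 (SE 0.15). rplp1 had 438, 395 and 422 CPM in runx2b-/- against 442, 499 and 518 CPM in wild type, and did not overlap. rpl10, whose protein joins the large subunit late, stood at -0.12 (SE 0.15), and rpl3, next to the catalytic centre, at -0.09 (SE 0.15). rpsa, also known as the laminin receptor, stood at -0.11 (SE 0.15) and rps4x at -0.07 (SE 0.15). rpl36, rpl36a and rpl39 lay between -0.17 and -0.12.

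Within 6 paralog pairs the log2 ratio of the partners was compared by a two-sided exact permutation test, which cannot go below p = 0.1 with 3 libraries against 3. rps8a over rps8b stood at 2.31, 2.33 and 2.41 in runx2b-/- and 2.43, 3.16 and 2.77 in wild type, a difference of -0.43 (exact p = 0.1, 0.3 after Benjamini-Hochberg adjustment over the 6 pairs). It was -0.24 without wild type library 2. rps27.1 over rps27.2 differed by 0.09 (exact p = 0.1, adjusted 0.3), and by 0.04 without runx2b-/- library 2. rplp2 over rplp2l differed by -0.23 (exact p = 0.2, adjusted 0.4). rpl5a over rpl5b (-0.09), rpl22 over rpl22l1 (0.03) and rpl7 over rpl7l1 (-0.06) had exact p of 0.3 to 0.9. Without single libraries the rpl22 pair ran from -0.03 to 0.11 and the rpl7 pair from -0.18 to 0.11, so both changed sign. Reads of near-identical paralogs may have been split by the count, so these ratios are uncertain.

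A second group held genes whose loss causes Diamond-Blackfan anaemia or a related loss of red cells in people, or whose proteins have known roles in signalling. All 11 in the table were tested, the same 3 tools called 0, 0 reached an unadjusted p under 0.05, and 10 lay below 0, with a median of -0.10. In the anaemia genes rps19, rps24, rps26, rps7, rps10, rps14 and rpl35a the fold changes ran from -0.22 (rps26) to -0.08 (rps14). rps26 had 29.5, 28.2 and 28.1 CPM in runx2b-/- against 29.97, 33.9 and 36.2 CPM in wild type, and rpl35a 146, 149 and 141 CPM in runx2b-/- against 151, 163 and 176 CPM in wild type. These were the only 2 of the group's 11 that did not overlap, where 11.7% of all tested genes had every runx2b-/- library below every wild type library. rpl11, a further gene of this anaemia, whose protein binds the p53 inhibitor Mdm2 when ribosome assembly fails in mammals, stood at 0.01 (SE 0.15). rps6, the substrate of the S6 kinases, stood at -0.06 (SE 0.15).

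Further genes of ribosomal proteins, or with related names, carry symbols outside the rule. Of 5 listed, faua, for a ubiquitin-like fusion with a small subunit protein, stood at -0.16 (SE 0.15), and its paralog faub at -0.61 (SE 0.23, edgeR adjusted p = 0.165) with 4.57 ± 1.33 CPM in runx2b-/- and 6.94 ± 1.12 CPM in wild type (SD, n = 3 each). rsl24d1 stood at -0.14 and rsl1d1 at 0.11, and neither encodes a protein of the mature ribosome. The same tools called 0 of the 5, and 1 (faub) reached an unadjusted p under 0.05.

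Other genes of the pathway were read from lists with the same test. Of 82 ribosome biogenesis genes edgeR called 0, DESeq2 called 3 and voom 0. An unadjusted edgeR p under 0.05 was reached by 22 on the lower side and 1 on the higher side. Together these were 28.0%, against 19.4% of all tested genes in either direction. The share of all tested genes on the lower side alone was not taken. The median was -0.17, and -0.13 with the length correction. The list's abundant members ncl, for nucleolin, and nop53 stood at 0.14 (SE 0.22) and 0.27 (SE 0.25). Of 9 genes of RNA polymerase I, which makes ribosomal RNA, 0 were called by any of these tools or had an unadjusted p under 0.05 (median -0.25), and their transcription factor ubtf stood at 0.07 (SE 0.16). Among 49 initiation genes edgeR called 1 lower and 0 higher, where it called 3.37% of all tested genes (median -0.10). DESeq2 called 3 and voom 1, where they called 675 and 348 of all 14107 tested genes. An unadjusted p under 0.05 was reached by 8 (16.3%, against 19.4% of all tested genes), all lower. The gene that fell was eif3hb, a subunit of initiation factor eIF3, with 4.75, 3.69 and 3.55 CPM in runx2b-/- against 7.77, 10.99 and 8.33 CPM in wild type (-1.17, SE 0.21, edgeR adjusted p = 0.01001). That call was lost without runx2b-/- library 2 or 3 or wild type library 2. Among 32 regulators of the mTOR pathway and of pyrimidine-tract messages edgeR called 1 lower and 0 higher (median 0.01), again beside 3.37% of all tested genes. Here 5 (15.6%, against 19.4% of all tested genes) had an unadjusted p under 0.05, with 1 call by DESeq2 and 0 by voom. The gene that fell here was eif4ebp1, a repressor of initiation that mTOR switches off, with 5.59, 5.02 and 5.40 CPM in runx2b-/- against 10.4, 7.93 and 8.39 CPM in wild type (-0.74, SE 0.18, edgeR adjusted p = 0.0440). That call was lost in 10 of 17 other settings, among them the length correction and voom. Of 14 elongation genes and 23 other genes with a pyrimidine tract these tools called 0, and 0 reached an unadjusted p under 0.05. Their medians were -0.04 and -0.02, and the abundant eef1a1l2 (elongation factor 1 alpha) stood at 0.11 (SE 0.16), eef1g at -0.02 (SE 0.15) and naca at 0.21 (SE 0.19).

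The proteins of the mitochondrial ribosome are encoded by separate nuclear genes. All 73 listed were tested, with a median of -0.02. edgeR called 1 lower and 0 higher, where it called 3.37% of all tested genes. An unadjusted p under 0.05 was reached by 9 (12.3%, against 19.4% of all tested genes), with 1 call each by DESeq2 and voom. The edgeR call was lost in 6 of 17 other settings, among them leaving out any 1 runx2b-/- library or wild type library 2. These genes are about as short as the cytosolic ones, with a median length of 1065 bases. With the length correction their median log2 fold change was 0.08.

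Markers of other cells in the tissue were summed in the same libraries. The edgeR calls given with them stand beside 3.37% of all tested genes called in either direction. Summed CPM of 7 red blood cell markers was 1538 to 1791 in runx2b-/- and 1157 to 1366 in wild type (4 higher, 0 lower by edgeR). For 5 endothelial markers it was 85.4 to 100.1 in runx2b-/- and 63.8 to 69.1 in wild type (1 higher). For 7 osteoblast markers it was 2.24 to 9.44 in runx2b-/- and 34.6 to 49.4 in wild type (1 of 4 tested lower, and sp7 at 0 in all runx2b-/- libraries). For 6 macrophage markers it was 32.2 to 43.4 in runx2b-/- and 40.02 to 65.9 in wild type, which overlapped (1 lower by edgeR, 0 by voom). For 6 neutrophil markers it was 0.928 to 1.54 in runx2b-/- and 3.04 to 8.92 in wild type (2 of 3 tested lower). For 10 egg and yolk markers it was 0.273 to 1.09 in runx2b-/- and 32.1 to 41.1 in wild type (4 of 4 tested lower). Of these markers gdf9 was at 0 in all runx2b-/- libraries. Sex and genotype cannot be told apart there, nor in the ribosomal protein genes of the same libraries. Slow muscle (7711 to 7796 in runx2b-/-, 6396 to 8818 in wild type), tendon (1138 to 1998 in runx2b-/-, 1210 to 1637 in wild type) and epidermis markers (72.5 to 94.3 in runx2b-/-, 52.4 to 174 in wild type, 1 of 3 tested lower) overlapped between genotypes, and so did the fast muscle markers. The part of these cell types in the levels of ribosomal protein genes was not tested.

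Some members share bases with another gene model. Exons of 13 of the 80 overlap those of another gene, and in 5 of them the other gene held over 1% as many counts: rpl17 with pgam2 (176%), rps12 with zgc:153284 (37.3%), rps27.2 with rab13 (23.7%), rpl37 with si:dkey-121h17.7 and blvra (2.30%) and rpl4 with map2k1 (1.95%). rpl17, for a protein at the exit of the tunnel, stood at -0.17 (SE 0.17), and its partner pgam2 encodes a muscle enzyme of glycolysis. Without the 13 overlapping genes the median log2 fold change was -0.12. The 80 genes are spread over 24 chromosomes, with rpl37 on several.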

How the data were processed

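The authors deposited whole-number read counts per gene symbol for the 6 bulk libraries, not normalized and not pooled, with chromosome, start, end, strand and length per the file headers. In 25278 of 25279 rows that deposited length equals the merged exons of all isoforms. Per the labels' protocols, Trizol RNA went into a stranded mRNA library kit. The submitters' processing notes name GRCz11 and Cell Ranger without tying either to this table. The aligner, counter, strand setting and the handling of reads that match several genes are not given in the sources used here, so reads of paralogs and of overlapping or antisense genes may be split or merged.

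Counts were tested in R 4.3.3 with edgeR 4.0.16 (filterByExpr at its minimum count of 10 and total of 15, TMM scaling with factors of 0.882 to 1.13, robust glmQLFit and glmQLFTest without covariates), and Benjamini-Hochberg adjustment ran over all 14107 genes tested. The SE is the absolute log2 fold change over the square root of F. CPM uses the TMM-scaled library sizes, and deviations used log2 (CPM + 0.5). At these depths 3 counts equal 0.134 to 0.181 CPM. DESeq2 1.42.0, limma 3.58.1 voom, other scalings and filters, a loess length correction (span 0.5), a replicate block and leaving out each library were alternatives. No 2 libraries of a genotype were alike within sampling noise. Members, gene lists and tests were chosen with earlier results of these data known. Genes were named by rule: per subunit the 4 highest per kilobase and the 3 highest and 3 lowest fold changes, the listed stalk, paralog, disease and signalling members, and up to 4 called or 2 abundant members of each other list. Genes named for not overlapping, or for an unadjusted p under 0.05, were chosen after their values were seen. Some genes that this rule takes are not reported here. The genes rpl15, rpl27a, rplp2b, rps11b and rps27l were not analysed here.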

Additional observations from a re-analysis of the deposited data

How the results depend on the processing

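No ribosomal protein gene was called in any of 17 other settings. The lowest adjusted p was 0.0858, with edgeR without wild type library 1. In 1 of them, the scaling on the summed members, fold changes are relative to the members themselves: their median was -0.0080 (-0.0031 in the large, -0.04 in the small subunit), and 25 genes had the other sign. In the other 16 the median log2 fold change stayed below 0, from -0.21 to -0.05 without single libraries and from -0.15 to -0.05 otherwise. In these 16 it ran from -0.19 to -0.02 in the large and from -0.24 to -0.09 in the small subunit. The large minus small difference of 0.04 moved to 0.0632 with the length correction and ran from 0.04 to 0.06 without single libraries. The distance from genes of the same length reversed to 0.0304 without wild type library 3, and ran from -0.13 to 0.03 without single libraries; the cause was not tested. The difference in summed share ran from -0.385 to -0.163 percentage points without single libraries. In the same 16, the 81 genes had the other sign in 54 of 1296 values, and 25 of the 80 did so at least once. The number of genes called over the whole table was 476, but 1161 without a filter and 304 with at least 50 counts in 3 libraries. It was 133, 155 and 115 without runx2b-/- libraries 1 to 3, and 670, 146 and 1225 without wild type libraries 1 to 3.

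Replicate numbers showed no clear pairing of the libraries. Deviations of same-numbered libraries correlated at -0.0582, 0.0248 and 0.0300 over all tested genes. Over the members they correlated at 0.00777, 0.104 and 0.207. Of the 6 libraries, 0 correlated best with its own number. In summed CPM of the 80 genes, library 1 was the lowest of its genotype in both (24863 in runx2b-/- and 25009 in wild type). With a replicate block 0 of the 80 were called, 5 had an unadjusted p under 0.05, their median was -0.12 and 377 genes were called in all.

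With 3 libraries a genotype and a median SE of 0.15, differences of the size of the members' median were not detectable gene by gene. Library totals of at least 17280098 left 79 of the 80 with a mean of at least 100 counts per library, and rpl7l1, the lowest, had the largest SE (0.23).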
